A study of Gracilariopsis lemaneiformis with 12 samples.

Results

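The 41 loci described here are those of the red seaweed Gracilariopsis lemaneiformis whose RNA was lower with indole-3-acetic acid (IAA) than in untreated tissue both 1 day and 3 days after treatment began. They were chosen from 25766 loci by a rule that used the measured values. Contigs that share the ID text before ".Contig" were summed to 1 locus, and each sequence whose ID begins with Unigene was kept as a locus of its own. A locus qualified if its highest group mean was at least 5 FPKM (fragment number scaled to sequence length and library size). On each day its group mean on the log2(FPKM + 1) scale had to be lower with IAA by at least 0.3, with all 3 IAA libraries below all 3 control libraries. The IAA differences of these loci are therefore given as a description, with no test.

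The study sequenced RNA of strain 981 in 12 libraries, 3 in each of 4 groups. These are untreated controls at day 1, tissue treated with 100 µM IAA for 1 day, untreated controls at day 3, and tissue treated with 100 µM IAA for 3 days. All 12 libraries are labelled as rhizoids, with a source given as branch rhizoids and 2 cm of primary rhizoids. The series' design text also mentions branches, and one reading of it is that the sampled part changed with the day, so time and tissue cannot be told apart in a comparison of days. The labels mention no solvent control. They do not say whether replicates came from separate cultures, so the p-values below reflect library-to-library spread that could be technical in part.

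Land plants use IAA as their chief auxin, a hormone that controls cell elongation, root formation and the outgrowth of branches. In land plants it acts largely through receptor proteins that mark transcriptional repressors for breakdown, so that target genes are released from repression. How red algae sense IAA is much less well understood. No deposited file links an ID to a named gene or to its bases. The loci are therefore described by ID, level and behaviour, and the labelled tissue could not be checked against marker genes.

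Summed FPKM per library lay between 291205 and 308835. Relative depth, read from the value of 1 fragment in 2050 low Unigene sequences, lay between 0.980 and 1.02, and absolute depth is unknown. That reading kept only values close to each sequence's smallest nonzero value. It could therefore not show a large difference in depth, and nothing is concluded from it. Pearson's r between libraries across the tested loci, which are not independent replicates, was 0.990 to 0.993 within groups and 0.963 to 0.985 between groups. No library stood apart from its group in summed FPKM or in these correlations.

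The condition on level left 5512 loci. At day 1, 388 of them were lower with IAA by the rule, a background of 7.04%, and 6.01% were higher by the rule with its signs turned. At day 3, 218 were lower, a background of 3.96%, and 22.9% were higher. The 41 loci that met both conditions were 0.744% of the 5512, or 10.6% of the day-1 list and 18.8% of the day-3 list. By the turned rule, 119 loci (2.16%) were raised on both days. A further 107 loci (1.94%) were lower at day 1 and higher at day 3, and 38 (0.689%) were higher at day 1 and lower at day 3.

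Many loci lay close to the limits. Among loci that met every other condition, the member nearest the limit at day 1 was CL1888, with an IAA difference of -0.31, and the nearest locus outside it was Unigene2547_All, at -0.28. At day 3 the nearest such loci were Unigene79_All inside, at -0.31, and CL753 outside, at -0.28. The lowest highest group mean among the members was 6.31 FPKM, in Unigene19889_All, and the highest among otherwise qualifying loci outside was 4.91 FPKM, in Unigene1012_All. In all, 41 loci missed only the size at day 1, 48 only the size at day 3, 19 only the level and 5 only the overlap at day 3. Of the 41 members, 31 also met the rule under 4 other scalings of the libraries, and 27 did so as well with a smaller pseudocount and on leaving out each library in turn. The number of loci that met the rule was 85 with median-of-ratios size factors, 71 after quantile normalization, 81 after rescaling to a common sum and 36 when scaled to loci of 20 FPKM or more.

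The members comprised 30 Unigenes and 11 clusters, so clusters made up 26.8% of the members and 30.2% of the 5512. Their mean over all libraries had a median of 45.1 FPKM, against 26.2 FPKM, and ranged from 4.89 to 953 FPKM. Of the members, 8 (19.5%) had a mean of at least 100 FPKM, against 9.72% of the 5512. No member was listed at 0 in any library. The libraries of a group lay close together, with a largest coefficient of variation over the 4 groups that had a median of 6.61% and reached 26.0% in Unigene1460_All. The rule favours such loci, since it allows no overlap between IAA and control libraries. The same value was not computed for the 5512.

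Most IAA differences were moderate. At day 1 the members' IAA mean was 41.8% to 79.5% of the control mean, with a median of 68.8%. At day 3 it was 18.4% to 80.3%, with a median of 73.5%. On the log2(FPKM + 1) scale the median difference was -0.53 at day 1 and -0.43 at day 3, where the medians over the 5512 loci were -0.06 and 0.01. The IAA mean was at most 50% of the control mean in 6 members at day 1 and in 5 at day 3. In 10 members it was lower by at least 0.5 on the log2 scale on both days.

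In 27 members the differences at the 2 time points lay within 0.3 of each other. In 10 members the difference was larger at day 1 by at least 0.3, and in 4 it was larger at day 3 by at least 0.3. In the deposited scaling the 4 were all of low level, with means of 6.05 to 9.42 FPKM, while the 10 had means of 17.1 to 170 FPKM. These groups were formed from the values the rule used and carry no test. They are given for the deposited scaling and depend on it. Median-of-ratios size factors moved the median difference over loci that met the condition on level by 0.06 at day 1 and -0.24 at day 3. Together these shifts are about as large as the limit of 0.3, and they favour a larger difference at day 3. Unigene8428_All, among the 10, then changed between days by 0.78 in controls and 0.85 with IAA, so its differences became nearly equal. Unigene6593_All, also among the 10, kept the larger difference at day 1, with changes of 0.35 and 0.84. With size factors more members had the larger difference at day 3, by at least 0.3, than at day 1. Those larger at day 3 included the abundant Unigene8444_All (mean 953 FPKM, changes 0.43 and 0.02) and Unigene4147_All (304 FPKM, 0.78 and 0.43).

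**Figure D1:**
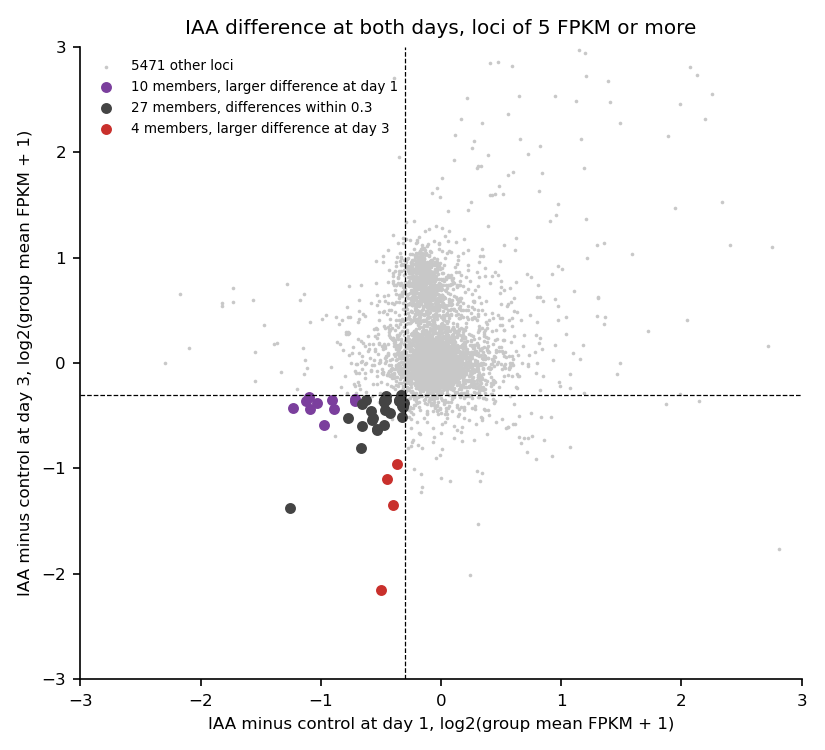
Difference between IAA and control at day 1 (horizontal) and day 3 (vertical), each as the log2 of group mean FPKM + 1, for the 5512 loci with a highest group mean of at least 5 FPKM, of which 9 lie outside the plotted range. Dashed lines mark the limits of 0.3, and coloured points are the 41 members. In the deposited scaling 10 of them have a larger difference at day 1 and 4 at day 3, by at least 0.3.

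**Figure D2:**
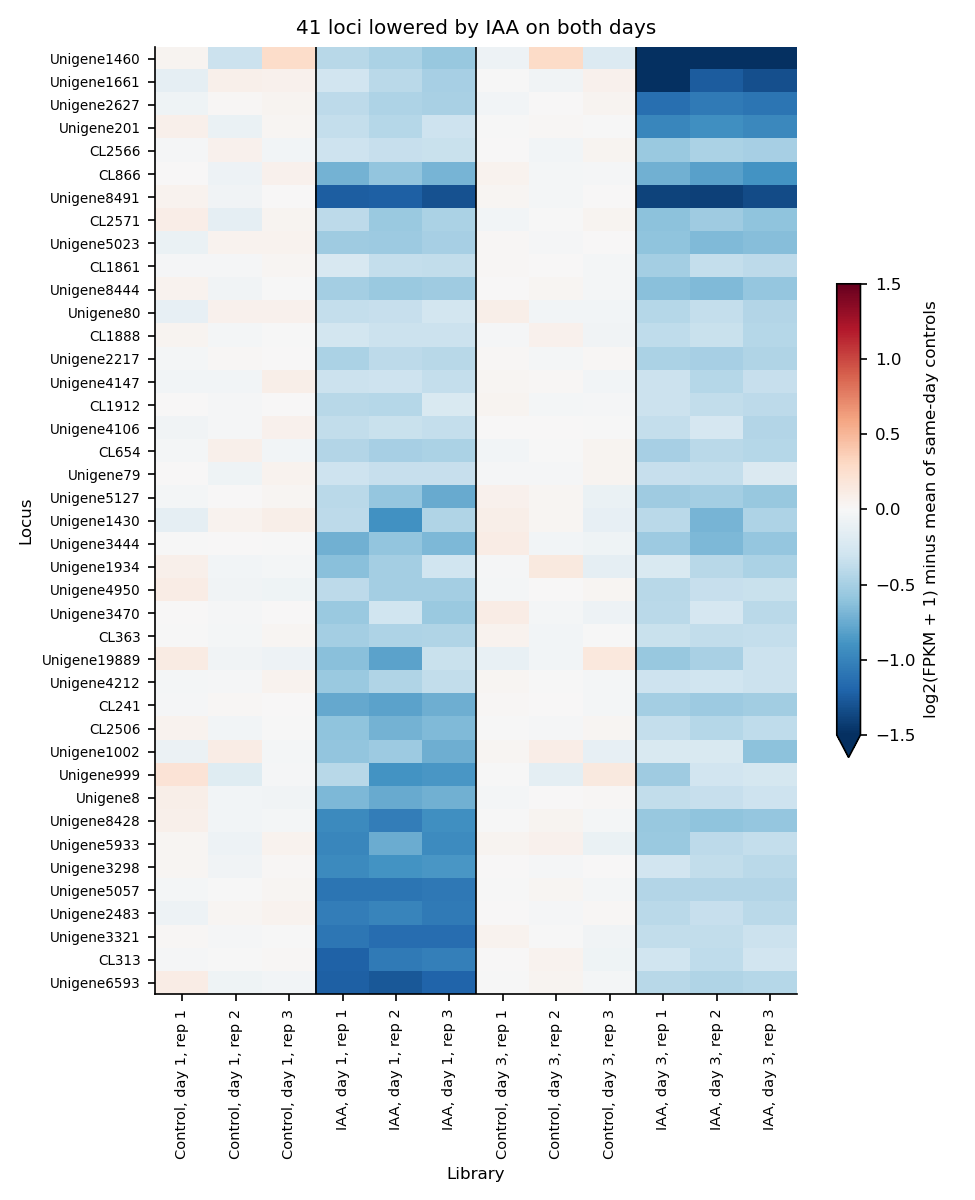
The 41 members in all 12 libraries, as log2(FPKM + 1) minus the mean of the controls of the same day, ordered by the day-3 difference minus the day-1 difference. Blue marks values below the controls. All IAA columns are blue by the rule, and the loci at the top are darker at day 3 and those at the bottom darker at day 1.

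Unigene8491_All was much lower with IAA on both days. It was at 455, 423 and 439 FPKM in the day-1 controls and at 186, 188 and 177 FPKM with IAA. At day 3 it was at 420.4, 405 and 416 FPKM in controls and at 158, 156 and 163 FPKM with IAA. Every IAA library thus lay far below every control library, by 2.25-fold or more at day 1 and 2.49-fold or more at day 3. Group means were 439 ± 16.0 and 184 ± 5.83 FPKM at day 1 and 414 ± 7.85 and 159 ± 3.62 FPKM at day 3 (SD, n = 3), which are differences of -1.25 and -1.38. It was the only member more than 1 lower on the log2 scale on both days.

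The member with the next largest difference on its weaker day was the cluster CL866. Its 2 contigs together were at 31.7, 29.8 and 33.1 FPKM in the day-1 controls and at 18.8, 20.6 and 19.0 FPKM with IAA. At day 3 they were at 29.1, 27.4 and 27.7 FPKM in controls and at 16.7, 15.5 and 14.6 FPKM with IAA. The differences were -0.67 at day 1 and -0.81 at day 3, so this locus, at a much lower level, also kept its distance in the deposited scaling. With size factors the distance widened in both loci. CL866 then changed between days by 0.23 in controls and -0.21 with IAA, and Unigene8491_All by 0.32 and -0.12.

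In amount of RNA, Unigene8444_All led. It was at 1178, 1092 and 1130 FPKM in the day-1 controls and at 797, 768 and 782 FPKM with IAA. At day 3 it was at 1154, 1168 and 1124 FPKM in controls and at 743, 725 and 771 FPKM with IAA. Neither day showed overlap, and the IAA mean was 69.0% of the control mean at day 1 and 65.0% at day 3. Its loss with IAA was 351 FPKM at day 1 and 402 FPKM at day 3, against 256 and 255 FPKM in Unigene8491_All.

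Together the 41 members took 4304, 4136 and 4266 FPKM in the day-1 controls and 2613, 2576 and 2602 FPKM with IAA at day 1. At day 3 they took 4164, 4147 and 4077 FPKM in controls and 2802, 2751 and 2828 FPKM with IAA. The control totals of the 2 sampling days thus lay between 4077 and 4304 FPKM, and all 6 IAA totals lay below all 6 control totals. Within each day the rule itself fixes that IAA totals are lower. As a share of summed FPKM this was 1.40 ± 0.0232% in controls and 0.861 ± 0.00946% with IAA at day 1, and 1.41 ± 0.00538% and 0.911 ± 0.0124% at day 3 (SD, n = 3). The total was lower with IAA by 38.7% at day 1 and by 32.3% at day 3. Without Unigene8444_All and Unigene8491_All it was lower by 38.7% and 26.4%. In bulk tissue, fewer cells of a type and less RNA per cell cannot be told apart.

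The 10 members with the larger difference at day 1 were led by Unigene6593_All. It was at 153, 135 and 137 FPKM in the day-1 controls and at 60.3, 58.2 and 61.1 FPKM with IAA, a difference of -1.23. At day 3 it was at 136, 140.4 and 133 FPKM in controls and at 102, 99.6 and 101 FPKM with IAA, a difference of -0.43. The controls of the 2 sampling days overlapped, while every day-3 IAA library lay above every day-1 IAA library, so the distance narrowed on the IAA side.

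CL313 and Unigene2483_All showed the same narrowing on the IAA side while their controls were higher at day 3. CL313 went from 91.2, 92.0 and 92.9 FPKM in the day-1 controls to 117, 121 and 111 FPKM in the day-3 controls. With IAA it was at 39.1, 43.5 and 44.6 FPKM at day 1 and 93.9, 89.2 and 94.9 FPKM at day 3, which is about the level of the day-1 controls. Its difference went from -1.10 to -0.32, and at day 3 it no longer passed the limit when libraries were scaled to loci of 20 FPKM or more. Unigene2483_All was at 44.2, 47.8 and 48.7 FPKM in the day-1 controls and 22.4, 23.0 and 21.9 FPKM with IAA. At day 3 it was at 52.6, 51.7 and 53.1 FPKM in controls and 39.5, 41.2 and 39.3 FPKM with IAA, so its difference went from -1.03 to -0.38.

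In Unigene3321_All and Unigene5057_All the controls came down more than the IAA libraries did. Unigene3321_All was at 266, 260.1 and 263 FPKM in the day-1 controls and at 107, 104 and 100.3 FPKM in the day-3 controls. With IAA it was at 123, 119 and 118 FPKM at day 1 and 80.0, 79.8 and 82.5 FPKM at day 3. The day-1 IAA libraries thus already lay near the level that controls had at day 3. Unigene5057_All was at 299.5, 304 and 311 FPKM in the day-1 controls and at 134, 138 and 133 FPKM in the day-3 controls. With IAA it was at 142, 142.5 and 144 FPKM at day 1 and 99.7, 99.2 and 99.1 FPKM at day 3, with the same order of groups. The differences went from -1.12 to -0.36 in Unigene3321_All and from -1.09 to -0.44 in Unigene5057_All.

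The 4 members with the larger difference at day 3 were Unigene1460_All, Unigene1661_All, Unigene2627_All and Unigene201_All. Unigene1460_All was at 3.48, 2.49 and 4.26 FPKM in the day-1 controls and at 2.27, 2.14 and 1.93 FPKM with IAA. At day 3 it was at 17.9, 23.3 and 16.4 FPKM in controls and at 4.34, 3.35 and 2.94 FPKM with IAA. The day-3 controls lay far above the other 3 groups, whose values ran from 1.93 to 4.34 FPKM. Its difference went from -0.50 to -2.15, the lowest value of any member on either day.

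Unigene1661_All followed the same course at a smaller scale. It was at 4.50, 5.37 and 5.34 FPKM in the day-1 controls, at 3.95, 3.57 and 3.28 FPKM with IAA at day 1, at 11.5, 11.2 and 12.1 FPKM in the day-3 controls and at 3.47, 4.31 and 4.03 FPKM with IAA at day 3. The IAA libraries of the 2 sampling days overlapped, and the day-3 controls lay above every other library, so its difference went from -0.40 to -1.35. Unigene2627_All went the other way: it was at 8.75, 9.33 and 9.43 FPKM in the day-1 controls and 7.23, 7.48 and 7.72 FPKM in the day-3 controls. With IAA it was at 6.73, 6.37 and 6.28 FPKM at day 1 and 2.87, 3.05 and 2.96 FPKM at day 3, so the distance widened on the IAA side, from -0.45 to -1.10.

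**Figure D3:**
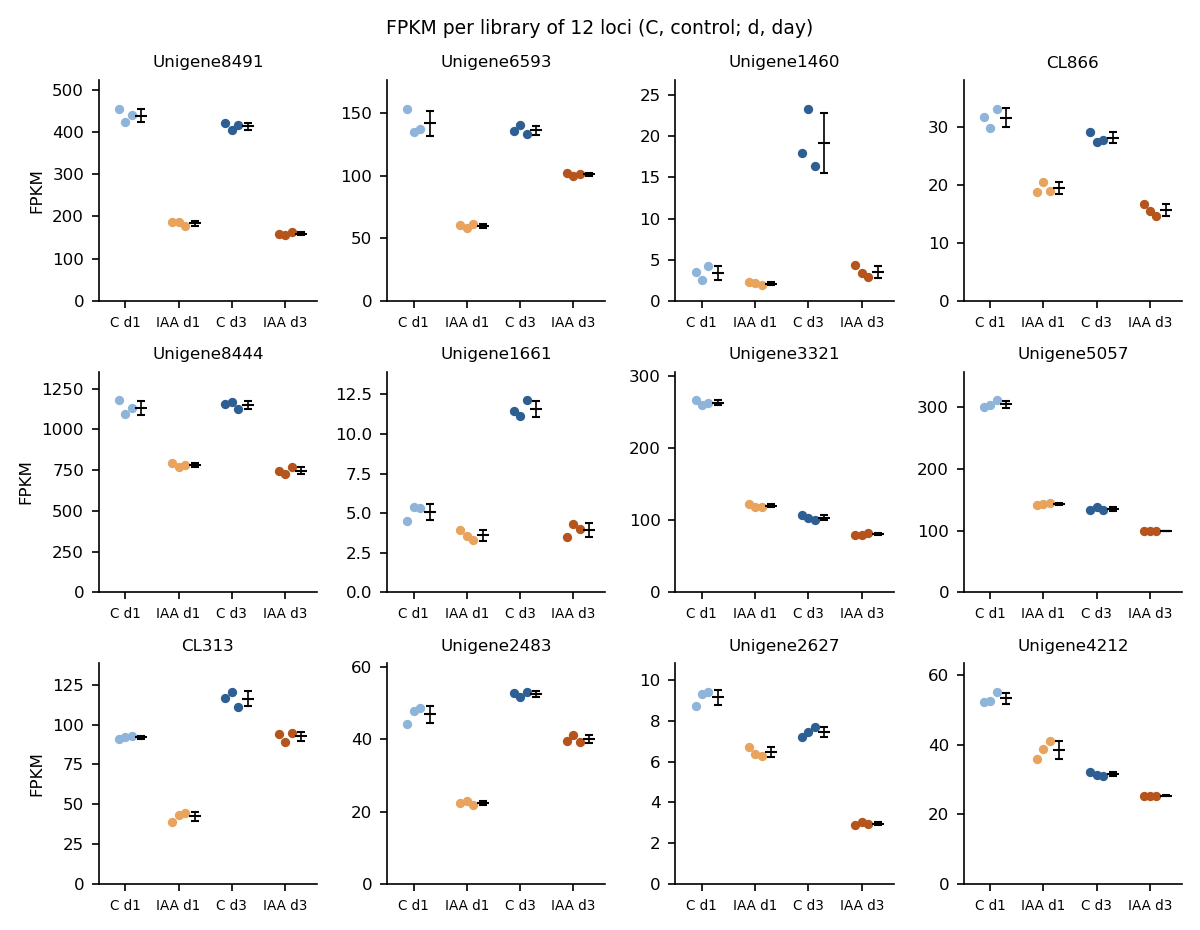
FPKM in each library (points) with the mean and SD of the 3 libraries (black) for the 12 members named by rule, in controls (C) and with IAA at day 1 (d1) and day 3 (d3); vertical axes start at 0 and differ between panels. In these deposited values Unigene8491 and CL866 keep their distance on both days, and Unigene6593 and CL313 approach the controls at day 3. In Unigene1460 and Unigene1661 the day-3 controls stand above all other groups.

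The comparison of days asked how the members moved with time in untreated and in treated tissue. In controls, 19 of the 41 members were higher at day 3 and 13 were lower by limma with Benjamini-Hochberg adjustment over 11044 loci (adjusted p under 0.05). The background was 13.6% of all loci tested higher and 57.8% lower, and 24.4% and 45.7% among the 5512 loci of sufficient level. The members thus held 46.3% higher and 31.7% lower calls. With median-of-ratios size factors, which moved the median control change of all loci up by 0.31, 31 members were higher in controls and 4 lower. The share of all loci called under that scaling was not counted, so the 31 and the 4 have no background. The 19 rises held under all 4 other scalings. Of the 13 falls 4 held under all of them, in Unigene3298_All, Unigene3321_All, Unigene4212_All and Unigene5057_All, and 4 others were called rises with size factors. The rule compared no days, but it read the same libraries.

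With IAA, 21 of the 41 members (51.2%) were higher at day 3 and 8 (19.5%) were lower by the same test, against a background of 13.3% and 20.7% of all loci tested and 22.8% and 29.1% of the 5512. Under all 4 other scalings 20 of the rises and all 8 falls held. The median change of the members was 0.06 in controls and 0.10 with IAA, against -0.07 and -0.03 over the 5512 loci. With size factors the members' medians were 0.44 and 0.18, against 0.32 and 0.06 over the 5512.

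Of the 41 members, 17 rose in controls and with IAA, 8 fell in both, 6 passed the test in neither, and 1, CL241, fell in controls and rose with IAA, though its control change was a rise of 0.24 with size factors. The rest passed the test in 1 kind of tissue. With size factors 22 rose in both, 4 fell in both and 4 passed in neither, and none fell in controls and rose with IAA. Under that scaling 2 members, CL866 and Unigene8491_All, rose in controls and fell with IAA. No background was counted for it. Among the 5512 loci, in the deposited scaling, 12.3% rose in both, 20.7% fell in both and 4.08% fell in controls and rose with IAA. The change with IAA minus the change in controls equals the day-3 difference minus the day-1 difference, so members with like differences on both days must also have like changes over time, and nothing is read from the match.

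The largest rises in controls were in Unigene1460_All and Unigene1661_All. Unigene1460_All rose 5.63-fold, from 3.41 ± 0.887 to 19.2 ± 3.64 FPKM (SD, n = 3; log2 change 2.20 ± 0.16 SE). It met the condition on level only through its day-3 controls, so this rise, counted among the 19, is given without a p-value. With IAA, between 2.11 ± 0.172 at day 1 and 3.54 ± 0.72 FPKM at day 3, it rose by 0.54 ± 0.16 on that scale (limma adjusted p = 0.02417). Unigene1661_All rose 2.29-fold in controls (log2 change 1.05 ± 0.09, limma adjusted p = 9.897e-07), and its change with IAA did not pass the test (0.10 ± 0.09, limma adjusted p = 0.4324). The control rises of both held under the 4 other scalings.

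The largest falls in controls were in Unigene3321_All, to 0.394 of its day-1 mean (log2 change -1.33 ± 0.03 SE, limma adjusted p = 3.095e-12), and Unigene5057_All, to 0.443 (-1.17 ± 0.02, limma adjusted p = 1.171e-12). Both also fell with IAA, with log2 changes of -0.57 ± 0.03 (limma adjusted p = 8.811e-09) and -0.52 ± 0.02 (limma adjusted p = 2.12e-09). With size factors the control falls were -0.93 and -0.76. The most abundant members by mean over all libraries were Unigene8444_All, Unigene4147_All and Unigene8491_All. Unigene8444_All changed by 0.02 ± 0.03 in controls (limma adjusted p = 0.5894), which became a called rise of 0.43 with size factors. With IAA it changed by -0.07 ± 0.03 (limma adjusted p = 0.1363), and it was called lower after quantile normalization (-0.17) and after rescaling to a common sum (-0.09). Unigene4147_All rose in controls (0.37 ± 0.04, limma adjusted p = 4.098e-06) and with IAA (0.34 ± 0.04, limma adjusted p = 1.931e-05), under the 4 other scalings too, though with size factors it did not meet the rule for members. Unigene8491_All was lower at day 3 by a small amount in controls (-0.09 ± 0.03, limma adjusted p = 0.02757), which became a rise of 0.32 with size factors and was not called under the other 3 scalings.

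With IAA the largest rises were in CL313, 2.19-fold from 42.4 ± 2.93 to 92.7 ± 3.03 FPKM (SD, n = 3; log2 change 1.11 ± 0.04 SE, limma adjusted p = 2.448e-09), and Unigene2483_All, 1.78-fold from 22.4 ± 0.555 to 39.97 ± 1.03 FPKM (0.81 ± 0.04, limma adjusted p = 5.537e-09). Both also rose in controls (0.33 ± 0.04 and 0.16 ± 0.04, limma adjusted p = 4.739e-05 and 0.001814). The largest falls with IAA were in Unigene2627_All (-0.91 ± 0.06, limma adjusted p = 1.457e-07) and Unigene4212_All (-0.59 ± 0.04, limma adjusted p = 3.384e-07). Unigene4212_All was at 52.5, 52.7 and 55.3 FPKM in the day-1 controls and 32.3, 31.5 and 31.0 FPKM in the day-3 controls. With IAA it was at 36.0, 38.7 and 41.2 FPKM at day 1 and 25.4, 25.4 and 25.2 FPKM at day 3. It thus fell over time in both kinds of tissue (controls -0.74 ± 0.04, limma adjusted p = 2.37e-08), and its day-3 difference of -0.31 no longer passed the limit when libraries were scaled to loci of 20 FPKM or more.

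**Figure D4:**
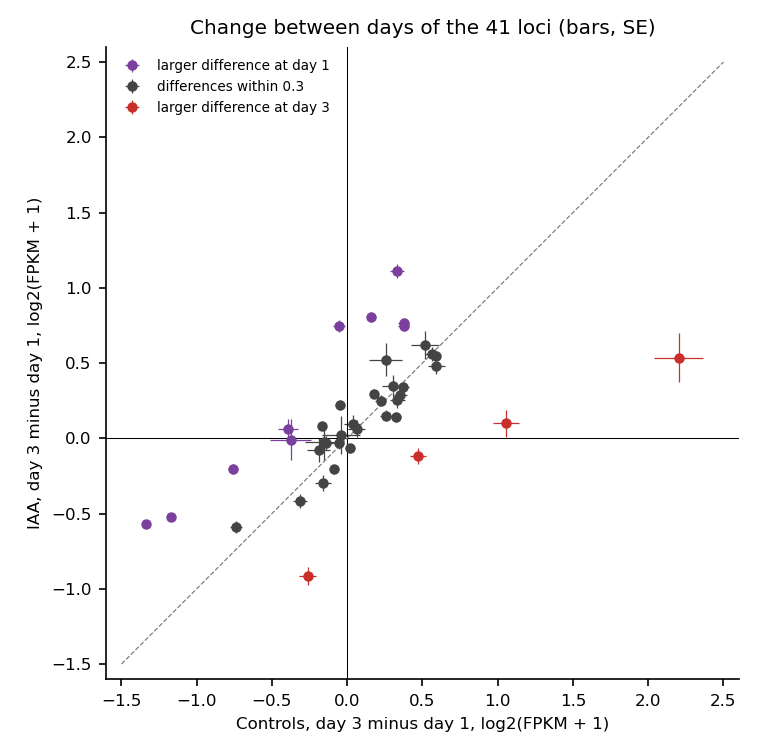
Change from day 1 to day 3 of the 41 members in controls (horizontal) and with IAA (vertical), as log2(FPKM + 1) with SE bars from the limma fit; the dashed line marks equal changes. Points above the line have the larger IAA difference at day 1, and Unigene1460 is the point farthest right, at 2.20 in controls and 0.54 with IAA.

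The 11 member clusters hold 34 contigs, of which 29 had a mean of at least 1 FPKM, and the lower sums came mostly from 1 contig per cluster. The leading contig carried 58.7% to 101% of the cluster's loss at day 1, with a median of 85.9%, and 64.1% to 102% at day 3, with a median of 94.6%. Values above 100% mean that other contigs of the cluster were higher with IAA. The leading contig was the same on both days in all 11 clusters. Of the 34 contigs, 14 lay below all controls on both days, a state not counted over all contigs. On their own, 11 contigs in 10 clusters met the whole rule, as did 40 of all 7493 contigs. The clusters were chosen by the same rule on their sums, so these counts are a description only. In CL1888 no contig met the rule, since its leading contig differed by -0.28 at day 1.

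In every cluster but CL2566 the leading contig was also the most abundant. At day 1 its share of the control FPKM in these clusters ran from 51.9% in CL2571 to 99.2% in CL363. Its share of the loss was 71.4% and 99.5% there, and in CL241 it was 70.0% against 75.3% of the control FPKM. A large part of the loss thus goes with a large part of the level. In CL2566 the leading contig, Contig3, held 20.3% of the control FPKM at day 1. In CL313, Contig2 went from 77.4 to 34.8 FPKM at day 1 and from 109 to 84.7 FPKM at day 3 (control and IAA group means). In CL866 the difference was shared: Contig1 went from 18.3 to 11.2 FPKM and Contig2 from 13.3 to 8.26 FPKM at day 1, though at day 3 the libraries of Contig2 overlapped. CL2566 was the most mixed. Its Contig3 went from 16.7 to 5.42 FPKM at day 1 and from 27.8 to 7.02 FPKM at day 3, differences of -1.47 and -1.84, and carried 66.7% of the cluster's loss on each day. Contig2 of CL2566 was above all controls at day 3, at 24.2 against 21.2 FPKM. Contig8 of CL654 was the other contig above all controls, at 2.59 against 2.08 FPKM at day 3. No contig of a member cluster lay above all controls at day 1.

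**Figure D5:**
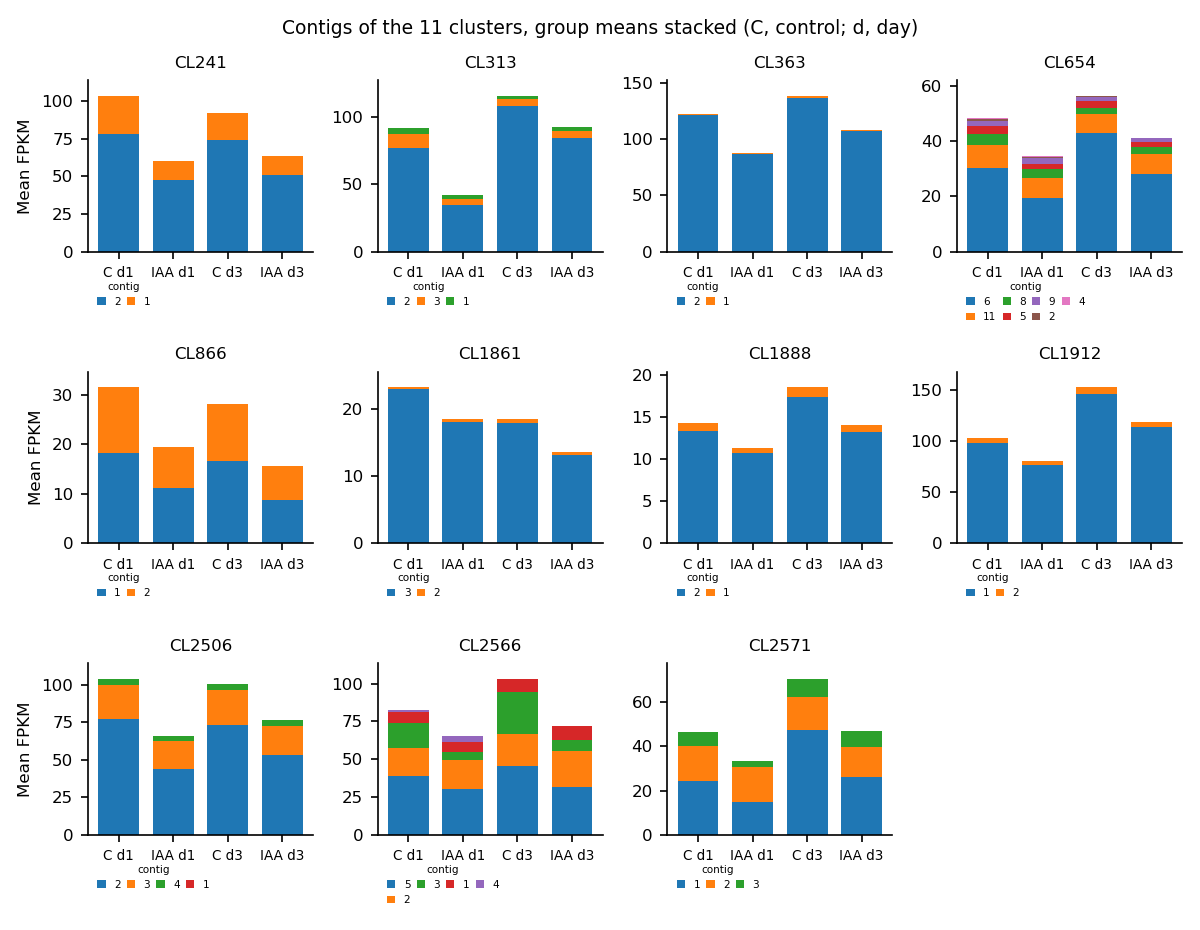
Group mean FPKM of the contigs of the 11 member clusters, stacked, in controls (C) and with IAA at day 1 (d1) and day 3 (d3); numbers in the keys are contig numbers, vertical axes start at 0 and differ between panels. In CL363, CL1861, CL1888 and CL1912 nearly all of the height is 1 contig, while CL2566 loses mainly Contig3 and Contig5.

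The authors' own lists hold no log2 ratio under 1 in size, a stricter limit than that of the rule. Of the 30780 sequences, the authors' deposited tables give 415 as lower at day 1 and 362 at day 3. They compare the same groups as the rule did, so members found in them are a description only. Of the 64 sequences that make up the members, the authors' deposited table of day 1 lists 11 as lower and 1, CL2566.Contig4_All, as higher. The authors' deposited table of day 3 lists 7 as lower and 2, CL2566.Contig4_All and CL654.Contig4_All, as higher. These 2 contigs were low, with libraries that overlapped between IAA and control on both days. The same was true of CL2506.Contig1_All, listed as lower at day 1, and of CL654.Contig2_All, listed as lower at day 3. Among the 30 Unigene members, 5 appear as lower on each day in the authors' deposited tables, and Unigene8491_All is the 1 that appears on both, with log2 ratios of -1.26 and -1.38.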

How the data were processed

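RNA-seq values of 12 libraries were analysed. The authors deposited FPKM values for 30780 assembled sequences and, per the file headers, 1 table per day with log2 ratios, p-values and q-values, with no word on the test behind them. The submitters' processing notes name Bowtie2 2.2.5 with no role. FPKM was summed per locus as stated, which gives short contigs the same weight as long ones. A limma 3.58.1 fit (R 4.3.3) of 4 group means with an abundance trend was made on log2(FPKM + 1) for 11044 loci with a mean of at least 1 FPKM, a scale that understates changes of low loci. All 41 members passed this filter. Tests were two-sided, and the fit was tested on simulated data. Named loci were the 2 lowest differences on each day and on the weaker day, the 2 largest FPKM losses, and the 2 largest called rises and falls per time comparison; CL241, Unigene201_All, the contigs and other IDs were chosen after their values were seen. The members and lists were chosen with earlier results of these data known. Alternatives were other scalings, pseudocounts, filters, fits and left-out libraries. No count test was run, since FPKM does not give whole reads for most sequences.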

Additional observations from a re-analysis of the deposited data

Results flagged for a closer look

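In 2 members all libraries of the controls moved one way between days and all IAA libraries the other way. In Unigene201_All the controls went from 10.3, 9.04 and 9.93 FPKM at day 1 to 13.8, 14.1 and 13.8 FPKM at day 3, while IAA went from 7.37, 6.99 and 7.68 to 6.56, 6.90 and 6.60 FPKM. The day-3 difference minus the day-1 difference was -0.59. The control rise passed the test (limma adjusted p = 1.372e-05) and the IAA change did not (limma adjusted p = 0.1195). In CL241 the controls went from 102, 105 and 104 to 93.7, 92.5 and 90.4 FPKM and IAA from 60.3, 58.9 and 61.9 to 64.4, 63.0 and 64.2 FPKM, a change in the difference of 0.25. Its control fall became a rise of 0.24 with median-of-ratios size factors, and its IAA rise was not called after rescaling to a common sum. These differences were not tested, because the rule used the same contrasts.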

How the results depend on the processing

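The number of members rests on the limits and the scaling. It was 85 with median-of-ratios size factors (33 of the 41 kept), 71 after quantile normalization (37 kept) and 81 when libraries were rescaled to a common sum, a step that lowers the effective limit on level. It was 10 with a limit of 0.5, 89 with 0.2 and 70 with each sequence on its own, of which 40 were contigs. It was 39 to 45 on leaving out 1 library. The median day-1 difference was -0.47 with size factors, -0.50 when scaled to loci of 20 FPKM or more and -0.54 to -0.51 without 1 library. The median day-3 difference was -0.67 with size factors, -0.50 after quantile normalization, -0.50 after rescaling to a common sum, -0.40 when scaled to loci of 20 FPKM or more, -0.44 with a pseudocount of 0.1 FPKM and -0.44 to -0.42 without 1 library. Size factors moved the median of the 5512 loci by 0.06 at day 1 and -0.24 at day 3. After quantile normalization the share of summed FPKM was 1.46% in day-1 and 1.42% in day-3 controls and 0.88% in day-1 IAA libraries. In controls, 31 members were higher and 4 lower over time with size factors, and 7 were lower after quantile normalization. No background shares were counted under these scalings. Without 1 library, 19 to 20 were higher and 9 to 13 lower in controls, and 19 to 21 higher and 8 lower with IAA. With size factors the control changes of CL241 and Unigene8491_All turned from falls to rises (0.24 and 0.32), as did those of 2 other members. The cause of these shifts was not tested. The split of the members by the day of the larger difference was made in the deposited scaling and depends on it.

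Replicate numbers did not pair the libraries: deviations from group means of same-numbered libraries correlated by -0.0518 to 0.0478 across loci. With a replicate block, 20 members were higher and 13 lower in controls and 21 higher and 8 lower with IAA. Absolute depth is unknown, so counting error could not be separated from the spread between libraries.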
